A study of Mus musculus with 5 samples.

Results

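Gene expression was compared between 2 single-cell RNA sequencing libraries of unsorted mouse lung cells, 1 from hyperoxia-exposed and 1 from air-exposed mice, both taken at pnd7. The members are all barcodes with 701 to 7999 genes detected and under 5% of their counts from mitochondrial features. This left 2308 cells in the air library and 1246 in the hyperoxia library, 3554 cells from 2 of the 5 libraries of the series. Newborn C57BL/6J mice of both groups were kept with their dams, either in room air or in more than 95% O2 for 3 days, and then stayed in room air until the lungs were dissociated. The dams changed places between the chambers every day, so that they too spent time in oxygen. The methods give a pool of 3 lungs for the sorted library, after the earlier report that the unsorted libraries come from, and do not state the number for the unsorted ones outright. With 1 library a side no spread between mice could be measured, so no test and no p-value is given. Exposure, litter, dissociation and library cannot be told apart.

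In the first weeks after birth the mouse lung divides its saccules into alveoli. Myofibroblasts at the tips of the secondary crests lay down elastin under platelet-derived and fibroblast growth factor signals, type II cells make surfactant and give rise to the thin type I cells, capillaries grow along the new walls, and alveolar macrophages clear surfactant lipid. High oxygen during this window gives fewer, larger air spaces and is used as a model of bronchopulmonary dysplasia, the lung disease of infants born preterm.

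The air library held 16648251 counts and the hyperoxia library 13576172, with medians of 3915 and 7119.5 counts and of 1809 and 2668 genes per cell. A count is 1 RNA molecule, marked by a unique molecular identifier. The libraries shared 2 of the kept barcodes, and Scrublet called 0 air and 4 hyperoxia cells doublets. Transcripts of both sexes were present on each side, with 10411 air and 6984 hyperoxia counts of Xist, which is made by the inactive X chromosome, and 618 and 614 counts of the Y-linked Ddx3y.

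One difference between the libraries touches many of the values. Hemoglobin, the product of red blood cells, made up 2% or more of the counts in 1011 air barcodes, or 43.8% (95% counting interval 41.8 to 45.9), and in 134 hyperoxia barcodes, or 10.8% (9.09 to 12.6). These barcodes were shallow in both libraries. Their medians were 1961 counts in air and 2684 in hyperoxia, against 9320 and 7929 in the remaining 1297 and 1112 cells, and they supplied 16.6% of the air and 6.02% of the hyperoxia counts. Only 6 and 7 barcodes lay between 1% and 2%, so the line falls in a gap of the distribution. It was drawn after the data were seen, and values without these barcodes are given beside the results described here that moved most without them.

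**Figure D1:**
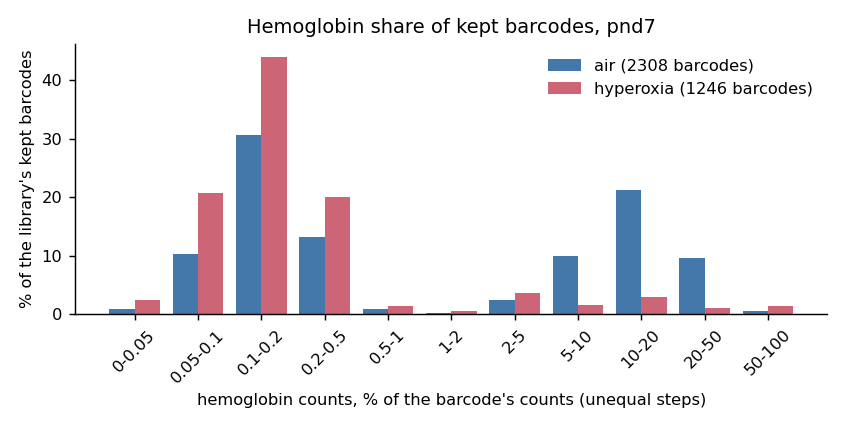
Percent of each library's kept barcodes (vertical axis) in steps of the hemoglobin share of the barcode's counts (horizontal axis, unequal steps), with air in blue and hyperoxia in red. Both libraries have a main group under 1%, and air has a second group from 2% upward that holds 43.8% of its barcodes, against 10.8% in hyperoxia.

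Over all cells, hyperoxia against air showed Retnla at both a high ratio and a far higher level than the other genes with high ratios, a lower level of the airway secretory transcript Scgb1a1, and smaller differences in many genes. Each gene's counts in all kept cells of a library were added up and scaled to the same library total, in the unit CPM. A gene was called higher or lower when it had at least 100 counts over both libraries, its ratio passed 1.5-fold (0.58 on the log2 scale) and the 95% binomial interval of the ratio excluded 0. Such intervals, here and throughout, cover counting error only and not differences between mice. Of 12591 genes tested, 193 (1.53%) were higher and 411 (3.26%) were lower in hyperoxia, and the median log2 ratio was -0.02. Without the hemoglobin-rich barcodes, 177 of 12352 genes were higher and 396 lower. The number and the direction of calls depended on how cells were weighted: with each cell thinned to 1000 counts, 220 were higher and 160 lower among 6067 genes, so that higher genes made up 57.9% of the calls instead of 32.0%. A sum over cells cannot tell fewer cells of a type from less RNA per cell.

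**Figure D2:**
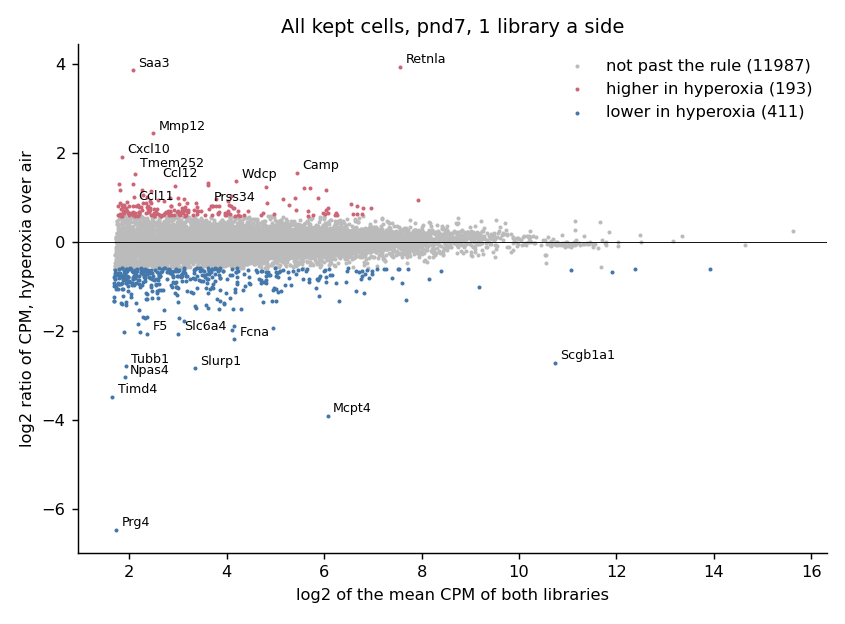
Log2 ratio of CPM, hyperoxia over air (vertical axis), against the log2 of the mean CPM of both libraries (horizontal axis), 1 point for each of 12591 genes, red where called higher (193) and blue where called lower (411). Retnla lies at 3.94, at a higher mean CPM than Saa3, Mmp12 and the other genes with the highest ratios, and Scgb1a1 at -2.72 is the most abundant of the strongly lower genes.

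Retnla encodes resistin-like alpha, also called FIZZ1, a small secreted protein known from type 2 inflammation and from the hypoxic lung, where epithelial cells release it. It had 384 counts in air (23.1 CPM) and 4806 in hyperoxia (354 CPM), a log2 ratio of 3.94 (3.79 to 4.09). Without hemoglobin-rich barcodes the ratio was 3.70. The counts were unevenly spread in hyperoxia, where 3 cells were enough for 50% of them, and the fullest barcode, in an erythroid-like cluster, held 1172. Type II-like cells supplied 48.4% of the air counts and 69.1% of the hyperoxia counts.

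Because Retnla stood out, its promoter is shown. It runs from 250 bases before to 50 after the start of transcription on mouse chromosome 16, plus strand (RefSeq, GRCm38.p6, which has the coordinates of the mm10 build named in the submitters' processing notes), chr16:48842359-48842658. Capitals mark 2 matches on the strand shown. The left one is to the STAT6 pattern, TTC and GAA parted by NNNN, and the right one to the C/EBP pattern, TTGCNNAA, where N is any base.
Retnla: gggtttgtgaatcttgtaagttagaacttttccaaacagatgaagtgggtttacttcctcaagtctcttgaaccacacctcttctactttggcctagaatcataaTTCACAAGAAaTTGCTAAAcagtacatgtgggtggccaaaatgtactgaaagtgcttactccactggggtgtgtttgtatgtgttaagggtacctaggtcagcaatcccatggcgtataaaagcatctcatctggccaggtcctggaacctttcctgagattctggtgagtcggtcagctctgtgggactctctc
The matches begin 145 and 134 bases before the start. On both strands, the first pattern occurs in 6.99% and the second in 10.8% of 27025 mouse promoters of this length. TGANTCA, the letters of AP-1, is found in 7.93% of them and has no match here. A match describes letters, and binding was not measured.

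In type II-like cells, which are the surfactant-making epithelium, Retnla went from 186 counts in 176 air cells to 3321 counts in 174 hyperoxia cells. This is 70.4 against 1357 CPM, a log2 ratio of 4.27 (4.06 to 4.49), and 4.44 without the fullest cell of each library. Both clusters of the class showed it: cluster 0 went from 70.9 to 1360 CPM and cluster 17 from 64.8 to 1341 CPM. The level of cluster 17 rested largely on 1 hyperoxia cell with 286 counts. Its next fullest hyperoxia cell held 18 and its fullest air cell 5. Retnla is the leading gene of cluster 17 (20 air and 62 hyperoxia cells), whose value is therefore a description, and is not among the 10 leading genes of cluster 0 (156 and 112 cells). More cells held the transcript, 39 of 176 (22.2%) in air and 93 of 174 (53.4%) in hyperoxia, and after thinning each cell to 1000 counts the shares were 3.98% (1.61 to 8.02) and 26.4% (20.1 to 33.6). In B cell-like cells, not known as a source of Retnla, the shares before thinning were 0 of 123 and 1 of 70. Their medians were 3810 and 4191 counts per cell, against 14549.5 and 15916 in type II-like cells. Other classes did hold the transcript before thinning. It was in 28 of 208 air and 8 of 76 hyperoxia type I-like cells, and in 3 of 140 and 25 of 102 alveolar macrophage-like cells. Among platelet-like barcodes it was in 15 of 149 and 0 of 8, and among erythroid-like ones in 13 of 220 and 2 of 25. Most type II-like cells with Retnla still had little of it: 23 hyperoxia cells had more than 10 counts and 9 more than 100, against 3 and 0 in air. Among all cells outside the class the ratio was also high, at 3.24, but it rested on few barcodes. There, 1172 hyperoxia counts lay in 1 erythroid-like barcode and 139 in 1 interstitial macrophage-like cell. Alveolar macrophage-like cells went from 2.13 to 58.0 CPM, type I-like cells from 35.7 to 16.1 and unnamed clusters from 39.0 to 38.9.

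**Figure D3:**
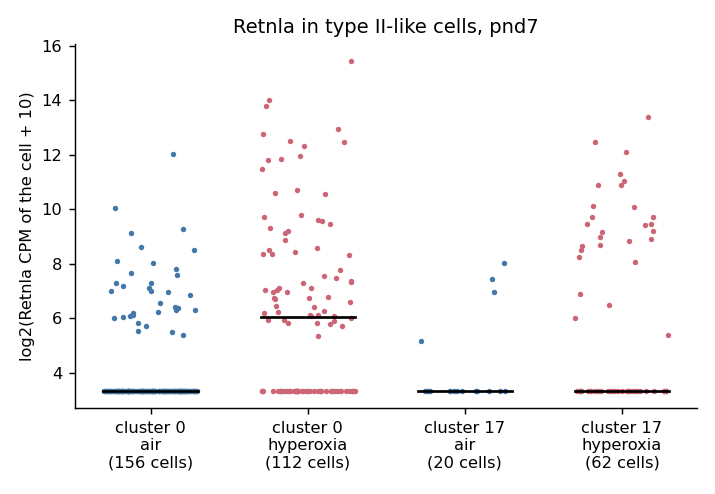
Retnla in each type II-like cell as log2(CPM + 10) (vertical axis) by cluster and library, 1 point a cell, with black bars at the medians. In both clusters the highest hyperoxia cells (red) lie above the highest air cell (blue), while many cells of each group sit at the floor, which is 0 counts.

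The other 9 of the 10 highest genes over all cells were counted at a low level. Mmp12, the macrophage elastase, had 29 air and 129 hyperoxia counts (log2 ratio 2.45, 1.86 to 3.08, and 3.05 without hemoglobin-rich barcodes). Of the hyperoxia counts, 98.4% came from alveolar macrophage-like cells. Saa3, an acute-phase protein, had 9 and 107 counts (3.87, 2.89 to 5.03), but 90 of the 107 were in 1 alveolar fibroblast-like cell. Cxcl10, an interferon-induced chemokine, had 25 and 77 counts (1.92). Tmem252 was the most evenly spread, in 30 air and 52 hyperoxia cells, mostly endothelial, with 37 and 87 counts (1.53, 0.96 to 2.12). Camp (1.57) was held by 9 air and 3 hyperoxia cells. Wdcp (1.36), Ccl12 (1.34), Ccl11 (1.31) and Prss34 (1.29) complete the 10. In Prss34, a basophil protease, 185 of the 237 hyperoxia counts were in 1 cell, and the ratio was 0.24 without the fullest cell of each library.

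Scgb1a1, the main secretory protein of airway club cells, was the most abundant of the 10 lowest genes. It fell from 49438 counts (2970 CPM) to 6107 counts (450 CPM), by 2.72 on the log2 scale (interval -2.76 to -2.68). The number of cells with at least 100 counts was 80 in air and 13 in hyperoxia, and 6 and 5 cells were enough for 50% of all counts. Hemoglobin-rich barcodes held 56.6% and 83.6% of the counts, and the ratio was -4.30 without them. Clusters that did not reach a class name held 97.2% and 90.7%. The club cell cytochrome Cyp2f2 was lower too, with 784 and 297 counts (-1.11). Scgb3a2, another airway secretory gene, passed the rule as lower with 3579 and 1670 counts (-0.81), but 2152 of the air counts were in 1 cell, and the ratio was 0.29 without the fullest cell of each library. Of its hyperoxia counts, 1554 were in hemoglobin-rich barcodes, as were 854 of the air counts, and the ratio was -4.43 without those barcodes. The list had 11 members tested, of which 3 were higher (Retnla, Saa3 and Ltf, which encodes lactoferrin) and 3 lower, with a median of 0.01. Of all tested genes, 1.53% were higher and 3.26% lower. Cbr2 (-0.28) and Wfdc2 (0.18), 2 of the 3 members with most counts, did not pass the rule. The number of airway cells caught and the RNA in each cannot be told apart here.

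Several of the lowest genes marked rare cells. Mcpt4, a mast cell protease, had 2103 counts in 9 air cells and 114 in 2 hyperoxia cells (-3.91, -4.20 to -3.64). Slurp1, found in mesothelial-like cells, had 298 and 34 counts (-2.84, or -4.03 without hemoglobin-rich barcodes), and another mesothelial gene, Msln, 1871 and 609 (-1.32). Fcna (-2.18), Timd4 (-3.48) and F5 (-2.06) had most of their air counts in interstitial macrophage-like and classical monocyte-like cells. These rested on few cells, as 2 air cells were enough for 50% of the air counts of each gene. In hyperoxia, 1 cell held 82 of the 87 Fcna counts and 1 cell all 7 Timd4 counts. Of Npas4 (-3.04), 96 of 111 air counts lay in megakaryocyte or platelet-like barcodes, of which there were 149 in air and 8 in hyperoxia. These barcodes held 106 of the 111 air counts and all 13 hyperoxia counts of the platelet tubulin Tubb1 (-2.80), with 80 of the air counts in 1 cell. They held 47.2% of the air counts of the serotonin transporter Slc6a4 (-2.07), and 69.0% of its hyperoxia counts were in alveolar macrophage-like cells. Without hemoglobin-rich barcodes the ratios of Npas4, Tubb1 and Slc6a4 were -1.81, -4.62 and -1.53, and the platelet-like class kept 3 air and 6 hyperoxia barcodes. Its size also hung on the method of naming. It held 54 and 3 barcodes by Leiden clustering, and 2 and 3 by each cell's own markers. Tubb1 turned to 0.62 when the hyperoxia classes were reweighted to the air mix. Prg4, the lowest at -6.47, had 100 of its 109 air counts in 1 cell. In 5 of these 20 genes at the ends of the list, a single cell held at least 50% of the counts of the higher library.

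CC chemokines, which attract leukocytes, had the highest median of the 38 gene lists in the main setting. Of 16 members, 11 were tested, 7 were higher, 1 was lower (Ccl24, 103 and 42 counts, 6.19 and 3.09 CPM), and the median was 0.82, or 1.04 without hemoglobin-rich barcodes. With cells thinned, the median of the list lay below those of the G2 and M and the neutrophil granule lists. Among all tested genes, 1.53% were higher and 3.26% lower. Ccl4 had 673 and 1234 counts (1.17, 1.03 to 1.31), Ccl5 1111 and 1649 (0.86), Ccl3 1004 and 1257 (0.62) and Ccl7 153 and 220 (0.82). Ccl12, a monocyte attractant made by interstitial macrophage-like cells, had 115 and 237 counts (1.34, 1.01 to 1.67). Ccl6, with 9583 and 8636 counts by far the most abundant, did not pass the rule (0.14), and neither did Ccl9 (0.10). Few cells carried these transcripts: 50% of the hyperoxia counts lay in 5 cells for Ccl4, 3 for Ccl5, 6 for Ccl3 and 2 for Ccl7, and 66.7% of the Ccl17 counts lay in 1.

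Some transcripts of neutrophil granule proteins were likewise higher through few cells. Each library had 14 neutrophil-like cells. Camp went from 367 to 886 counts and Ngp from 524 to 989 (1.21, 1.06 to 1.37), with 3 hyperoxia cells holding at least 100 counts of either gene. Lcn2, an iron-binding protein of neutrophils and of injured epithelium, had 2764 and 4356 counts (0.95, 0.88 to 1.02). It was spread over 416 air and 261 hyperoxia cells, and 66.3% of its hyperoxia counts were in type II-like cells. Of 14 members tested, these 3 and Ltf (0.64) were higher and 0 were lower, with a median of 0.35. Of all tested genes, 1.53% were higher and 3.26% lower. S100a11 (0.24), Lyz2 (0.20) and S100a6 (0.06), which had most counts, and Mmp8 (-0.05) and Mmp9 (-0.01), which had the lowest ratios, did not pass.

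Genes of DNA replication and cell division had ratios above 0 in nearly every member, though few passed 1.5-fold. By EdU uptake and Ki67 staining, the paper reports less proliferation in hyperoxia-exposed lungs at pnd7. Those were counts of stained cells and not of RNA. Intervals lay above 0 in 16.3% and below 0 in 18.4% of all tested genes. Of the 27 G2 and M phase genes tested, 25 had an interval above 0 and none below, with a median of 0.41 (0.31 without hemoglobin-rich barcodes). Aurka, a mitotic kinase, was the 1 member to pass the rule (208 and 268 counts, 0.66, 0.39 to 0.93), with Ccnb2 at 0.56 and Cks2 at 0.55 just short of it. The topoisomerase Top2a (3337 and 3648 counts, 0.42), the proliferation marker Mki67 (2581 and 2479, 0.24) and Ube2c (0.34) had most counts. The lowest were Cenpf at 0.02, Bub1b at 0.11 and Cenpe at 0.15. Of 27 S phase genes, 21 had intervals above 0 and none below (median 0.37), and Cdc6 (0.69), Ccne2 (0.62) and the thymidylate synthase Tyms (0.61) passed the rule. Pcna stood at 0.24, Dut at 0.45, Mcm7 at 0.34, and the lowest were Mcm4 (0.04), Chaf1a (0.07) and Mcm2 (0.09).

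Replication-dependent histone genes, expressed while DNA is copied, went furthest among the proliferation lists. Of 68 members 27 had enough counts, 12 of these were higher, 0 were lower, and the median was 0.56. Of all tested genes, 1.53% were higher and 3.26% lower. H2bc11 (68 and 107 counts, 0.95), H1f3 (166 and 239, 0.82) and H2ac11 (87 and 125, 0.82) were the highest. H1f5, with 1424 and 1793 counts, passed (0.63), H2ac8 at 0.58 did not, and H1f0, which cells also make outside S phase, was the lowest at 0.08, below H1f2 (0.25) and H4c4 (0.26). The near-identical copies of these genes share reads, so single members are uncertain.

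The same was seen in shares of cells at a matched depth. After thinning to 1000 counts, cells with 2 or more counts from the S phase list made up 15.1% in air (13.6 to 16.6) and 22.3% in hyperoxia (20.04 to 24.7), where unthinned cells gave 58.0% and 72.1%. For the G2 and M list the thinned shares were 16.9% and 22.3%, or 11.2% and 20.3% without hemoglobin-rich barcodes, and the unthinned shares 40.2% and 50%. In alveolar macrophage-like cells the G2 and M shares were 17.9% (11.9 to 25.2) and 36.3% (27.0 to 46.4), but 25% (16.4 to 35.4) and 37.4% (27.4 to 48.1), with overlapping intervals, without hemoglobin-rich barcodes. The S phase share of type II-like cells was 5.11% (2.36 to 9.49) in air and 17.8% (12.4 to 24.3) in hyperoxia. Myofibroblast-like cells went from 10.3% to 21.3% and general capillary endothelial-like cells from 12.6% to 23.5%, with intervals that overlapped in both. In B cell-like cells the order was the other way, 14.6% and 8.57%, with overlapping intervals.

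Some genes of the secondary crest myofibroblast list were lower, while most did not pass the rule. Of 25 members, all of them tested, 6 were lower and 0 higher. Among all tested genes, 3.26% were lower and 1.53% higher. Pdgfra, the receptor that marks these cells, had 1642 and 708 counts (-0.92, -1.05 to -0.79). The growth factor Fgf18 had 1270 and 506 (-1.03), the hedgehog target Gli1 176 and 71 (-1.02), the matrix protein Tgfbi 12955 and 5243 (-1.01, -1.06 to -0.96), Tgfb3 887 and 471 (-0.62) and Wnt5a 3103 and 1659 (-0.61). Acta2 (-0.19) and Tagln (-0.34), the other members with most counts, did not pass, nor did Shh, Wnt2 and Fgfr4, which were the highest at 0.22, 0.24 and 0.32.

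Some matrix genes were lower too, while most did not pass the rule. Among all tested genes, 3.26% were lower, and intervals lay below 0 in 18.4% and above 0 in 16.3%. Of 18 elastic fibre genes tested, 3 were lower: elastin itself (Eln, 43344 and 22770 counts, -0.63, -0.66 to -0.61), Ltbp2 (-0.82) and the cross-linking enzyme Loxl2 (-0.71). The median of this list was -0.08, with 9 intervals below 0 and 3 above. Mfap4 (0.47), Fbln2 (0.51) and Fbln5 (0.38) were the highest and did not pass, and Mfap2 stood at -0.24. Of 18 collagens, Col12a1 (723 and 284 counts, -1.05) and Col5a1 (-0.60) were lower and none was higher. Intervals lay below 0 in 11 collagens and above 0 in 5, and the median was -0.28. The fibrillar collagens Col1a1 (-0.30), Col1a2 (-0.28) and Col3a1 (-0.47) had most counts. Col14a1 stood at -0.51, and Col18a1 (0.26), Col4a3 (0.20) and Col13a1 (0.19) were at the upper end. Of 14 contractile genes only 1 was lower by the rule, Myh11 (-0.61), and none was higher. Intervals lay below 0 in 9 of them and above 0 in none, and the median was -0.25. Actg2 (-0.47) and Cnn1 (-0.46) came next to Myh11, and Tpm1 (-0.03), Myl9 (-0.03) and Tpm2 (0.0025) had the highest ratios. Aspn, a marker of the myofibroblasts, had 4858 and 1604 counts (-1.30, -1.39 to -1.22).

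**Figure D4:**
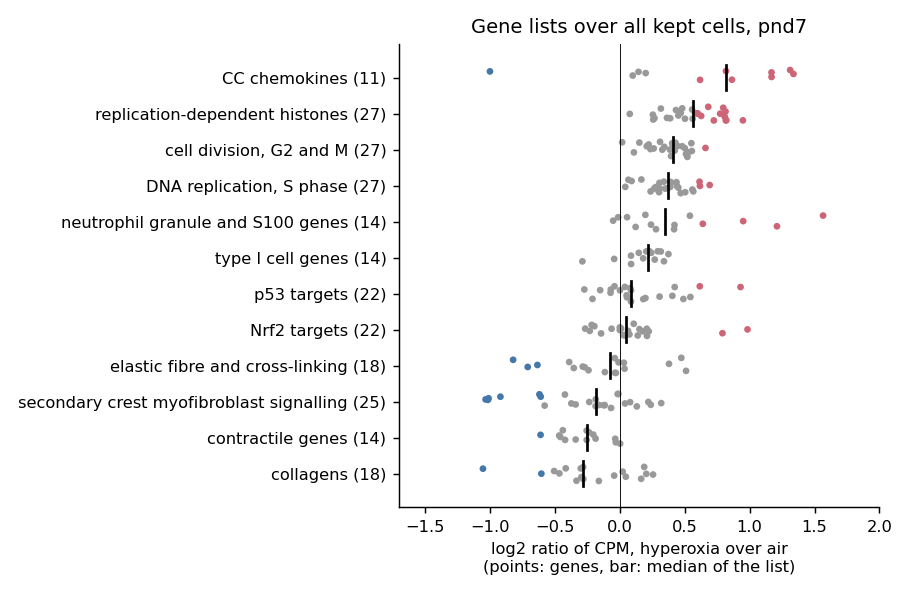
Log2 ratio of CPM, hyperoxia over air (horizontal axis), of the tested members of 12 gene lists (rows, number tested in brackets), 1 point a gene, red or blue where called higher or lower and grey otherwise, with a bar at the list's median. Medians run from 0.82 for CC chemokines to -0.28 for collagens, and the p53 and Nrf2 target lists lie at 0.08 and 0.05. In every list shown but CC chemokines, most genes did not pass the rule. Retnla is in none of the lists drawn.

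Most genes of the stress responses did not pass the rule. Among all tested genes, 1.53% were higher and 3.26% lower. Of 22 targets of p53, which answers DNA damage, Cdkn1a (p21) had 186 and 289 counts (0.93, 0.66 to 1.20). Ddit4l had 52 and 65 (0.62), and the rest did not pass. Btg2 (-0.07), Bax (0.18) and Plk2 (0.04) had most counts, and Rrm2b (-0.27), Gdf15 (-0.21) and Bbc3 (-0.15) were the lowest. Tnfrsf10b stood at 0.54. Of 22 targets of Nrf2, which answers oxidants, the heme oxygenase Hmox1 (656 and 1058 counts, 0.98, 0.84 to 1.13) and the cystine carrier Slc7a11 (56 and 79, 0.79) were higher. One alveolar macrophage-like cell held 376 of the hyperoxia counts of Hmox1, and without the fullest cell of each library its ratio was 0.41 (0.25 to 0.56), short of the rule. Prdx1 (0.21), Txn1 (0.18) and Fth1 (-0.06), the most abundant, did not pass, nor did Gclc (0.22), Osgin1 (-0.27), G6pdx (-0.23) and Gstm1 (-0.22). Neither did any of 16 superoxide and peroxide enzymes, in which Gpx3 (0.49), Prdx4 (0.30) and Glrx (0.28) were the highest and the extracellular superoxide dismutase Sod3 (-0.41), catalase (Cat, -0.30) and Gpx7 (-0.13) the lowest. The most abundant of them, Gpx1, Gpx4 and Prdx2, stood at -0.01, 0.21 and 0.19.

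Heat shock genes (11 tested), endoplasmic reticulum chaperones (19), MHC class I (8) and class II (3) genes and ribosomal proteins (77) had no member past the rule. The rule was passed by 1.53% of all tested genes as higher and by 3.26% as lower. Atf3 (0.65) was the only 1 of 17 integrated stress response genes to pass, and Atf3 and Socs3 (0.60) the 2 of 19 immediate early genes. Of 28 interferon-stimulated genes, Cxcl10 and Isg15 passed, but Isg15 went from 0.60 to 0.08 without hemoglobin-rich barcodes. No surfactant gene (16 tested) or type I cell gene (14 tested) passed, and Sftpc, the surfactant protein C that alone gave 771173 and 751145 counts, stood at 0.26. Among 26 endothelial genes Apln (0.81) and Sox18 (0.63) were higher and the lymphatic receptor Flt4 (-0.64) was lower. The imprinted gene Mest was higher (1370 and 1902 counts, 0.77), the clock output gene Hlf lower (568 and 245, -0.92) and complement C3 lower (2293 and 1048, -0.84). In the lists left, the calls were Areg (0.77) among 15 epithelial transition genes, Ankrd37 (0.61) and Egln3 (-0.67) among 23 hypoxia and glycolysis genes, and Idi1 (0.61) among 20 cholesterol synthesis genes. Among 22 macrophage lipid genes Gpnmb (-1.40), Ctsk (-1.04) and Acaa1b (-0.64) were lower, and among 12 erythroid genes Hba-a2 (-0.68), Hba-a1 (-0.60) and Hbb-bs (-0.60) were. Cell cycle inhibitors (5 tested), metallothioneins (2), retinoid genes (9), nuclear lamina genes (8) and genes of the sex chromosomes (6) had no call.

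Cells were clustered over both libraries and named from markers, with "-like" after each name. The shares of some classes rested on the hemoglobin-rich barcodes. Myofibroblast-like cells were fewer in hyperoxia either way, 194 of 2308 (8.41%) against 75 of 1246 (6.02%), a log2 ratio of -0.48 (-0.89 to -0.09), and -1.17 (-1.58 to -0.78) without those barcodes. Type II-like cells had a higher share, 7.63% against 13.96% (0.87), as had alveolar fibroblast-like (0.84) and general capillary endothelial-like cells (0.93). Without hemoglobin-rich barcodes their intervals included 0, at 0.21, 0.17 and 0.25. With each cell classed by its own markers, type II-like cells stood at -0.18 (-0.40 to 0.03) over all kept barcodes. Classed that way without hemoglobin-rich barcodes, they stood at 0.56 (0.28 to 0.83). In the named clusters, type I-like cells turned from -0.56 to 1.18 without those barcodes. Of their 208 air cells, 179 lay in a cluster where the air cells had a median hemoglobin share of 9.89%. B cell-like cells went from 0.08 to -0.64 and T cell-like cells from -0.17 to -0.82. Alveolar macrophage-like cells, at 0.43, went to -0.01 at a clustering resolution of 1. Unnamed clusters held 23.6% of air and 18.8% of hyperoxia cells.

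**Figure D5:**
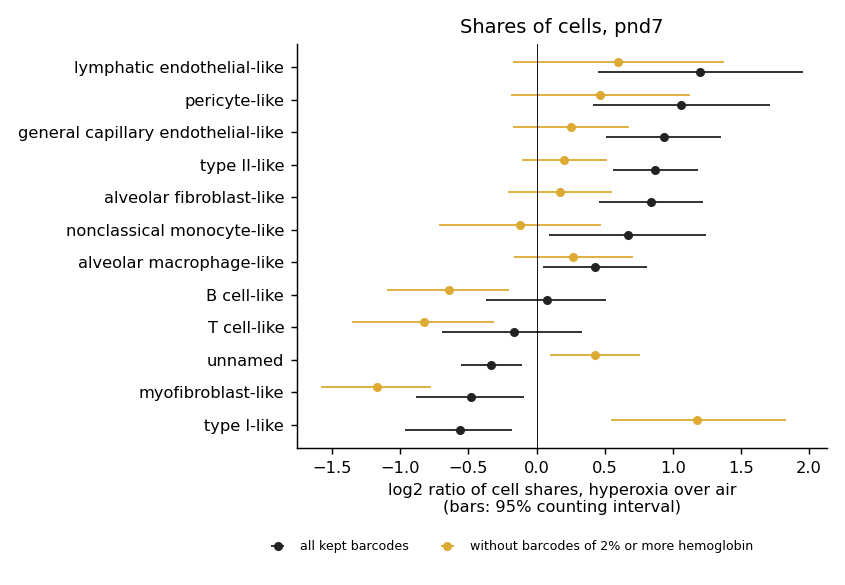
Log2 ratio of the share of cells in each class, hyperoxia over air (horizontal axis), with 95% counting intervals, over all kept barcodes (black) and without hemoglobin-rich barcodes (yellow). Myofibroblast-like cells lie below 0 in both, at -0.48 and -1.17, and type I-like cells change sides.

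The 7 classes with at least 50 cells in each library were also compared within the class, and over them 662 ratios were called higher and 849 lower. In simulated counts the rule also called unchanged genes, from 24 in B cell-like to 63 in myofibroblast-like cells. Many calls at the ends of the class lists came from 1 cell, most of all in general capillary endothelial-like cells, where 6 of the 10 named genes had at least 50% of their counts in 1 cell of the higher library and 4 calls were kept without it.

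Among type II-like cells (176 air, 174 hyperoxia), 130 of 5924 genes (2.19%) were higher and 141 (2.38%) lower, and 120 and 131 stayed so without each gene's fullest cell. Of 10 S phase genes tested, 7 were higher and 0 lower, with a median of 0.72 beside -0.02 for all genes of the class. Mcm3 and Mcm6, parts of the helicase that opens DNA for copying, had 33 and 105 counts (1.78, 1.20 to 2.39) and 55 and 136 (1.42, 0.95 to 1.90). The DNA clamp Pcna had 148 and 231 (0.75), and Rrm1, a subunit of ribonucleotide reductase, 36 and 74 (1.15). Lcn2 was higher with 1768 and 2887 counts (0.82, 0.73 to 0.90), as were haptoglobin (Hp, 0.66) and the growth factor Areg (0.59), and so were Manf (0.65) and Creld2 (0.60), both of the endoplasmic reticulum. The surfactant transcripts Sftpc (0.05), Sftpa1 (0.19) and Sftpd (0.20) did not pass the rule.

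Lower in the same cells were the lipoprotein lipase Lpl (215 and 75 counts, -1.41, -1.81 to -1.02), the apolipoprotein Apoe (1733 and 1022, -0.65, -0.76 to -0.54) and S100a6 (203 and 80, -1.23). Of 12 clock and glucocorticoid response genes, Nr1d2 (104 and 51 counts, -0.92), Dbp (-0.78) and Cry1 (-0.74) were lower and none was higher. Eln (-2.78) was the lowest of all, but 528 of its 970 air counts were in 1 cell (-2.07 without it). The leukocyte genes Cd52 (-2.68) and Ccl6 (-1.56) came from 14 and 13 air cells, and Ctla2a (-1.62) from 17. At the upper end, the pericyte genes Pde5a (3.05) and Gucy1a1 (2.26) had 40 of 100 and 60 of 89 hyperoxia counts in 1 cell each. Hba-a1 (2.13) and Hba-a2 (2.13) were near 0 without hemoglobin-rich barcodes (-0.12 and 0.09).

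In alveolar macrophage-like cells (140 air, 102 hyperoxia), 111 of 4302 genes (2.58%) were higher and 94 (2.19%) lower. They came from 4 clusters that do not hold the 2 libraries alike. Cluster 21 was mostly hemoglobin-rich (41 and 15 cells), and cluster 25 (15 and 35 cells) carried Sftpc at 52783 CPM in air and 92744 in hyperoxia. The surfactant genes among the highest in this class, Sftpa1 (2.94), Scd1 (3.44) and Chil1 (3.35), moved with that cluster. In clusters 11 and 36 together (84 and 52 cells), Sftpc stood at -0.07, so values from those 2 clusters stand beside those of the class below. Transcripts typical of other cells were still uneven there. Col1a1 had 159 and 3 counts (-5.25), Eln 200 and 9 (-3.99), Mfap4 202 and 22 (-2.72) and Igfbp2 77 and 1.

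Mmp12 went from 5 counts in 5 cells to 127 in 17 cells (5.06, 3.803 to 6.71), and from 5 to 126 counts in the 2 clusters (5.14), with 51 in the fullest cell. Most of these cells had little of it. Over all cells, 5 hyperoxia cells held 86.0% of the Mmp12 counts and 3 had at least 10. Without the fullest cell of each library, the Mmp12 ratio over all cells was 2.26. Chil3, a chitinase-like protein typical of alveolar macrophages, went from 385 to 838 counts (1.52, 1.34 to 1.70; 1.78 in the 2 clusters), the scavenger receptor Marco from 295 to 473 (1.08 and 0.80) and Cdkn1a from 45 to 87 (1.35, 0.81 to 1.90; 1.36). These 4 genes rose by the rule in both settings. For Chil3, 1 alveolar macrophage-like cell held 256 of the hyperoxia counts. Over all cells, 119 air and 36 hyperoxia cells had Chil3 counts, and its ratio was 0.86 without the fullest cell of each library. Of 19 G2 and M genes tested in the class, 8 were higher and 0 lower (median 0.54), among them Nusap1 (0.96, and 0.93 in the 2 clusters), Cenpa (0.84 and 0.96) and Top2a (428 and 500 counts, 0.62). In the 2 clusters Top2a stood at 0.55 and Mki67 at 0.27, neither past the rule. Hmox1 went from 104 to 455 counts (2.53), but stood at 0.18 without its fullest cell.

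Ctsk, Gpnmb, Fabp4, Krt79 and Gdf15 were lower. Ctsk, the gene of cathepsin K, had 372 and 102 counts (-1.47, -1.80 to -1.15; -1.48 in the 2 clusters), Gpnmb 322 and 111 (-1.14 and -0.79) and the lipid carrier Fabp4 144 and 50 (-1.13 and -0.84). Krt79, a keratin that marks alveolar macrophages, had 117 and 20 (-2.15 and -2.20), and the stress cytokine Gdf15 167 and 68 (-0.90 and -0.69). Of the 21 lipid handling genes tested, these first 3 were lower and Apoc1 (1.61) was higher. Fibroblast and type I cell genes (Mfap4, -3.26, and Igfbp2, -5.29) and the neutrophil genes S100a9 (-5.67) and Stfa1 were also among the lowest. Of these, S100a9 had 329 of 336 and Stfa1 175 of 180 air counts in 1 cell, and the latter had 0 counts in hyperoxia. Ccl5 (-5.01) had 199 of 212 in 1 cell. Scgb3a2 (2.73) turned to -1.58 without its fullest cell.

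In myofibroblast-like cells (194 air, 75 hyperoxia), 97 of 5767 genes (1.68%) were higher and 240 (4.16%) lower. The crest genes that were lower over all cells had ratios nearer to 0 within the class. Pdgfra stood at -0.36 (-0.51 to -0.20), Fgf18 at -0.52, Tgfbi at -0.54, Tgfb3 at -0.53, Wnt5a at -0.25 and Eln at -0.26, all with intervals below 0 and none past the rule, and Acta2 at 0.16. Aspn (3885 and 1240 counts, -0.76, -0.85 to -0.67) did pass. So did the transcription factor Scx (374 and 85 counts, -1.25, -1.61 to -0.91), Ccdc3 (375 and 66, -1.62), dermatopontin (Dpt, 262 and 55, -1.36), Ecm2 (-1.30) and the pyrophosphate-making Enpp1 (289 and 68, -1.20). Of 13 collagens tested 12 had intervals below 0, against 11.9% of all genes tested in the class, and Col3a1 (-0.61), Col12a1 (-0.72), Col14a1 (-0.75) and Col15a1 (-0.82) passed.

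Replication genes were higher in the same class. Of 12 S phase genes 6 were higher and 0 lower (median 0.58), with Mcm5 at 1.17 (70 and 85 counts), Rrm2 at 0.81 and Mcm7 at 0.70. The replication clamp partner Pclaf had 65 and 118 counts (1.75, 1.30 to 2.21), the histone H2bc4 65 and 122 (1.80) and the ligase Lig1 88 and 101 (1.09). S100a6 had 112 and 247 counts (2.03), 114 of them in 1 cell, and stood at 1.49 without it. Twist1, a mesenchymal transcription factor, had 109 and 131 (1.15, 0.78 to 1.53). Pcdh17 (1.43) and Cox4i2 (1.19) were also among the 5 highest. The mix of sexes in the class moved with these values: Xist was lower (-0.71) and Ddx3y higher (0.65, 0.20 to 1.10), and its part in them was not tested. Sftpc (-2.74) and Hbb-bt (-2.06) had 2195 of 2501 and 1021 of 1400 air counts in 1 cell.

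Alveolar fibroblast-like cells (120 air, 116 hyperoxia) had the lowest share of calls of the 7 classes, 81 of 5319 (1.52%) higher and 119 (2.24%) lower, and of the 10 named genes all kept their call without the fullest cell. The immediate early genes Fos (533 and 1113 counts, 0.87, 0.72 to 1.02) and Socs3, an inhibitor of cytokine signalling (67 and 175, 1.19), were higher, 2 of 12 tested with 0 lower. Nnat, an imprinted gene, had 229 and 512 counts (0.97, 0.74 to 1.20), the neuronal-type RNA Bc1 29 and 113 (1.77), the spindle gene Ckap2 49 and 119 (1.09) and Lockd (1.16) and Pigx (1.08) followed. Complement genes were lower, 3 of 5 tested (C1ra, -0.70, C1s1, -0.59, and Cd55, -0.77), and all 5 had intervals below 0, as had 8.78% of all genes tested in the class. Cygb (-1.23), the collagen-binding Fmod (-1.19), Abca8a (-1.18) and the chemokine Cxcl14 (-1.11) were lower as well. Postn (-3.02) and Ifitm1 (-1.61) had 73 of 121 and 129 of 265 air counts in 1 cell. Tcf21 (-0.08), which marks the class, Eln (-0.07) and Col1a1 (-0.21) did not pass.

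General capillary endothelial-like cells (95 air, 98 hyperoxia) formed 1 cluster whose leading genes also held the arterial Gja4 and Sox17. Of 3105 genes, 55 (1.77%) were higher and 85 (2.74%) lower. Vegfc, a lymphatic and venous growth factor (33 and 84 counts, 1.35, 0.75 to 1.97), the arterial connexin Gja5 (47 and 104, 1.14), Rgs2 (85 and 178, 1.06) and the cation pump Atp13a3 (48 and 142, 1.56) were higher. B2m, the light chain of MHC class I, had 257 and 461 counts (0.84, 0.62 to 1.07) and Mest 285 and 456 (0.68). The imprinted H19 had 151 and 47 counts (-1.69), in 15 and 9 cells, and Cyp4b1, typical of capillaries, 143 and 59 (-1.28, -1.74 to -0.83). The fatty acid carrier Cd36 had 569 and 366 (-0.64). The markers Plvap (0.21), Gpihbp1 (-0.13) and Aplnr (0.03) did not pass. Mt1 (4.25), Hba-a1 (1.96), Hba-a2 (1.89), Sftpc (-3.95), Mfap4 (-3.78) and Sftpa1 (-2.43) each owed at least 50% of the higher library's counts to 1 cell.

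B cell-like cells (123 air, 70 hyperoxia) were tested on 1641 genes, 32 (1.95%) of them higher and 73 (4.45%) lower. The highest, Hba-a1 (3.85), Hba-a2 (3.74), Hbb-bt (3.73) and Hbb-bs (3.41), lay between -0.20 and 0.34 without 1 air and 3 hyperoxia barcodes rich in hemoglobin. Ube2a (1.84) turned to -0.25 without its fullest cell. With broader support, the centromere histone Cenpa was higher (61 and 85 counts, 1.15, 0.66 to 1.65), and Snhg3 (112 and 25, -1.50), the B cell transcription factor Arid3a (123 and 36, -1.10), Txndc5 (-1.07), the import receptor Kpnb1 (-1.05) and the cell cycle inhibitor Cdkn2d (-1.01) were lower.

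For type I-like cells (208 air, 76 hyperoxia), 156 of 3347 genes (4.66%) were higher and 97 (2.9%) lower, the highest share of calls of the 7 classes. Here the libraries did not hold like cells. In cluster 2 the 179 air cells had a median hemoglobin share of 9.89% and the 34 hyperoxia cells of 0.155%, and cluster 18 held 29 and 42 cells. The lowest genes were of fibroblasts, Igfbp5 (-6.17), Mgp (-5.09), Col1a2 (-3.93), Col1a1 (-3.805) and Col3a1 (-3.74), and without hemoglobin-rich barcodes they stood at -1.99, -5.14, -2.20, -1.31 and -1.35. Mest (13 and 134 counts, 3.51), Ifi27l2a (2.73, with 91 of 108 counts in 1 cell), Bc1 (2.04), H1f10 (1.85) and H2ac8 (1.75) were the highest. In cluster 18, the type I gene Hopx had 1650 and 2713 counts (0.37, 0.29 to 0.46), while Ager, the usual type I marker, had 2 and 6 counts and Sftpc, a type II transcript, stood at 66274 and 44895 CPM. The name of the class rests on its other markers.

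The same ratio was taken in the unsorted pnd60 libraries of mice exposed in the same way, with 4397 air and 4756 hyperoxia cells. There 147 of 12928 genes (1.14%) were higher and 107 (0.828%) lower. Retnla stood at -0.07 (-0.19 to 0.06), with 954 and 1022 counts, and Mmp12 at -0.11 (151 and 157 counts). Scgb1a1 stood at -0.49 (122361 and 97705 counts). Ccl12, with 57 and 118 counts, was at 0.88 (0.42 to 1.37), Saa3 at 2.64 (3 and 21 counts) and Slurp1 at -4.72 (47 and 2 counts). In sign, 10 of the 20 named genes were alike at both ages, and whether the ages differ cannot be tested across mice.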

How the data were processed

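Per the labels, the authors' files hold raw counts: in each deposited matrix, a whole number of molecules for each of 42454 features in each barcode. Cell Ranger, mm10 and Seurat 3.2.1 are named in the submitters' processing notes. The limits on genes and on the mitochondrial share (2 features) follow the paper's methods. SCTransform (version 0.4.2, R 4.3.3) and integration in Seurat 5.3.0 used 3000 features, and 50 dimensions went into clusters made at resolution 2. Clusters were named from 30 sets of markers, by thresholds set after the clusters were seen. A name needed at least 3 of its markers, and a share of at least 0.5 of them, raised. It also needed more markers among the cluster's 10 leading genes than any other class, and no other lineage but the erythroid raised as far. Where no class had a leading marker, at least 5 raised markers at 2 times the share of the next class were needed. Clusters with many raised markers could thus stay unnamed, as did cluster 9 with 8 of 8 ciliated markers raised. Doublets called by Scrublet were kept. A library with 0 counts was set to 3 counts. TMM factors came from edgeR 4.0.16, and the rest was done in Python 3.11.15 with scanpy 1.11.5, scipy 1.17.1, pandas 2.3.3, numpy 2.4.6 and leidenalg 0.10.2.

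The named genes are the 10 highest and 10 lowest over all cells, the 5 highest and 5 lowest in each class, and in each list described one by one the 3 highest, 3 lowest and 3 with most counts, besides class markers. Features without a symbol of their own were counted but not drawn. Other genes were added after their values were seen. The members and lists were chosen with earlier results of these data known. Alternatives changed the cell filter, doublets, cell weights, depth, scaling, count minimum, fold, class mix and clustering. The call rule was tested on simulated data drawn from the 2 libraries: over 12562 genes of the all-cell comparison it found 95 of 100 genes changed 2-fold and 97 of 100 changed 4-fold, called 32 unchanged genes, and 95.9% of intervals held the true value. The simulated counts carried counting error only, which is what the interval assumes. They held no clumping of counts in single cells and no differences between mice, so the rule was not tested against either.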

Additional observations from a re-analysis of the deposited data

Results flagged for a closer look

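Of the 20 genes named over all cells, 4 with at least 100 counts at pnd60 had an interval on one side of 0 at pnd7 and on the other at pnd60. Prss34, with 8 air and 1 hyperoxia counts at pnd60, also did, at 1.29 and -3.17. The difference between ages was not tested. Camp was higher at pnd7 (log2 ratio 1.57) and stood at -6.38 at pnd60, where 223 air and 3 hyperoxia counts were found, and at pnd7 its hyperoxia counts came from 3 cells. Tmem252 went from 1.53 to -1.14 (110 and 56 counts at pnd60). Wdcp went from 1.36 to -0.37 (259 and 224), and at pnd7 1 T cell-like cell held 81 of its 357 hyperoxia counts. F5 went from -2.06 to 0.59 (39 and 66), with 63 of its 138 air counts at pnd7 in 1 cell.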

How the results depend on the processing

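No paired analysis was possible because each side had 1 library. Cell weights moved most values, and the cause of each move was not tested. With each cell weighted alike (mean CPM per cell), 514 genes were higher and 625 lower over all cells. These calls used the 1.5-fold size alone, without an interval, so their number cannot be set against that of the main rule. With cells thinned to 1000 counts 160 were lower. A minimum of 20 counts gave 341 and 695, one of 300 counts 73 and 186, and a 2-fold threshold 23 and 101. Within classes, 662 higher and 849 lower calls became 114 and 87 after thinning, 108 and 150 at 300 counts and 127 and 138 at 2-fold. On size alone, by mean CPM, they were 1776 and 1663. Tubb1 turned to 0.62 at the air class mix.

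By mean CPM, list medians were 0.59 for G2 and M, 0.089 for MHC class II, 0.015 for complement (a turn of sign), 0.54 for neutrophil granule, -0.018 for macrophage lipid, 0.067 for surfactant, 0.49 for endothelial, -0.35 for collagen, 0.35 for lamina, -1.02 for erythroid and 0.43 for sex chromosome genes. Those of type I (-0.22), transition (-0.16) and ribosomal protein genes (0.032) turned sign. After thinning they were 0.59 for G2 and M, 0.061 for MHC class II, 0.58 for neutrophil granule, 0.50 for CC chemokine, 0.084 for surfactant, 0.48 for endothelial, -0.17 for contractile, 0.23 for ferritin, 0.38 for lamina, -1.01 for erythroid and 0.50 for sex chromosome genes. Those of complement (0.21), type I (-0.17), transition (-0.0057) and ribosomal protein genes (0.036) turned sign. At the air class mix, the medians were 0.19 for cell cycle inhibitors, -0.39 for complement, 0.10 for neutrophil granule, 0.034 for surfactant, 0.10 for type I, 0.048 for endothelial, -0.38 for collagen and -0.10 for contractile genes, and that of erythroid genes turned to 0.37. With all deposited barcodes, they were 0.18 for cell cycle inhibitors, -0.067 for complement, 0.084 for surfactant, 0.18 for airway secretory and -0.072 for erythroid genes, and 0.014 for ribosomal proteins, a turn of sign.

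Without hemoglobin-rich barcodes, an alternative chosen after seeing the data, they were 1.04 for CC chemokine, 0.24 for surfactant, 0.43 for type I, -0.32 for collagen and -0.12 for erythroid genes. The log2 ratios of class shares became -0.64 (B cell-like), 0.17 (alveolar fibroblast-like), 0.25 (general capillary endothelial-like), -1.17 (myofibroblast-like), 0.21 (type II-like) and 1.18 (type I-like, a turn of sign). Classed by each cell's own markers over all kept barcodes, they were -1.37 for myofibroblast-like cells, and turned sign for type I-like (1.16) and type II-like cells (-0.18). Type II-like cells classed that way stood at 0.56 without hemoglobin-rich barcodes. The values that follow are again over all kept barcodes. At resolution 1 they were -0.12 for type I-like and, turned, -0.010 for alveolar macrophage-like cells, and with Leiden clustering -1.35 and, turned, -0.58. Leaving out each gene's fullest cell, also chosen after seeing the data, left 180 genes higher and 474 lower over all cells.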
